A study of Mus musculus with 17 samples.

Results

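The chaperone genes of the endoplasmic reticulum and of the cytosol are described here across forms of the transcription factor subunit p65/RelA. The set holds 37 genes taken by name from a list and matched to the gene names on the array, with the brightest probe of a gene standing for it. They fall into an unfolded protein response arm of 20 genes and a heat shock arm of 17 genes, among 15202 genes tested. Of the 37, 36 had a probe and 33 were tested, 20 of 20 and 13 of 17 by arm. Hspa1b had no probe under that name. Hspa1a and Hspb1 were well above background on 0 of 17 arrays and Bag3 on 1, so these 3 genes were not tested. The 33 tested members were well above background on all 17 arrays, so none of them passed through 1 group alone, and none was saturated.

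The unfolded protein response is started by 3 sensors in the membrane of the endoplasmic reticulum. IRE1 (gene Ern1) splices the mRNA of Xbp1, ATF6 is cut to release a transcription factor, and PERK (gene Eif2ak3) phosphorylates the translation factor eIF2. Together they raise the chaperones, disulfide isomerases and degradation factors of that compartment. The heat shock response works in the cytosol and nucleus through HSF1, which is held inactive by HSP90 and HSP70 chaperones and, once freed, raises their genes. Leukaemia cells carrying Bcr-Abl are known to depend on HSP90, of which the Bcr-Abl kinase is a client.

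RNA was measured on 17 one-colour arrays from DA1-3b, a mouse leukaemia line carrying Bcr-Abl, strain C3H eOuJ. Each sample came from cells transfected with 1 plasmid, or with a pair of them, for p65. The plasmids coded for the full-length protein (WT, n = 4), its mutant D361E, which the series design calls non-cleavable (n = 4), residues 1-361 (n = 3), residues 362-549 (n = 3), or the 2 fragments together (1-361+362-549, n = 3). The design asks which genes the full-length protein, the uncut mutant and the fragments regulate. Void-plasmid cells are not analysed here, so WT is the reference and nothing is said about p65 against no p65. The labels name no separate cultures, so the p-values rest on how far these arrays differ, and part of that may be technical. The single Rela probe read 4.61 to 4.93 over the 17 arrays and was called in 0 of 10 contrasts (lowest limma adjusted p = 0.448). Whether it lies inside the transfected sequences was not established, so it does not check the constructs.

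The sample titles carry numbers from 2 to 21 with every sixth one missing, and each run of consecutive numbers holds 1 array of each construct in the order WT, D361E, 1-361, 362-549, 1-361+362-549. The last run, 20 and 21, holds WT and D361E alone. These runs are called rounds 1 to 4 here, and the labels do not say what they stand for. The 5 arrays of round 3 stood apart from the others in this gene set, as given below, so the arm medians, the called members and the pathway genes called against WT are also given within rounds or without round 3. They lay on 5 different slides of the 6, all 17 arrays were scanned on 1 day, and the 75th percentile of their signal ran from 635.8 to 898.7 intensity units, against 668.4 to 1065 in round 1 and 700.1 to 1214 in round 2. The values 1065 and 1214, the highest of the 17 arrays, were those of 1-361+362-549, whose round 3 array stood at 846.7. The part of this brightness in the results with that construct was not tested. Levels below are log2 signals relative to the 75th percentile of the same array. They compare arrays for 1 probe and are not set against each other between genes.

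Promoter sequence was available for 30 of the 37 members in the RefSeq table of build GRCm38.p6, as windows of 300 bases from 250 before to 50 after the transcription start. Atf6, Manf, Hyou1, Hspa8, Hsp90aa1, Hsp90ab1 and Hsf1 had no entry. The ER stress element, CCAAT and CCACG with 9 free bases between them, searched like all motifs here on both strands, was present for 7 of 17 members of the unfolded protein response arm (Hspa5, Hsp90b1, Dnajc3, Pdia6, Creld2, Calr and Canx) and 0 of 13 of the heat shock arm, beside 0.119% of all 32851 windows. Its variant, ATTGG and CCACG with 1 free base between them, which shares the end CCACG with it, was found for Dnajb11 and Herpud1 and in 0.0365% of windows. The XBP1-type element TGACGTGG was present for 0 members and in 0.676% of windows. A heat shock element, GAA, TTC and GAA or TTC, GAA and TTC with 2 free bases at each gap, was present for 3 of 13 members of the heat shock arm (Hsph1, Hspd1 and Hspe1), 0 of 17 of the other, and 0.603% of windows. The kappaB consensus, the DNA motif that p65 binds, was present for 3 of 17 and 4 of 13 members and in 8.46% of windows. The members were Creld2, Calr and Edem1 of the first arm and Hspa1a, Hspa1b, Hspd1 and Hspe1 of the other. Counted by gene, as the members are, the shares of these motifs in the order given were 0.137%, 0.0444%, 0.714%, 0.662% and 9.55% of 27025 genes. The 250 upstream bases are shown for members on which the results below turn, 5′ to 3′ on the gene's strand, with any ER stress element, its variant or heat shock element in capitals. The windows of Hspe1 and Hspd1 overlap, since the 2 genes start back to back, and their heat shock elements are the same bases. Their kappaB matches are also the same bases, and those of Hspa1a and Hspa1b are the same letters at the same distance from the start. The 4 kappaB matches of the heat shock arm are therefore not independent. A match is a match of letters in this window, and no match says nothing about a factor.
Hspa5, chr2:34771840-34772089, strand +: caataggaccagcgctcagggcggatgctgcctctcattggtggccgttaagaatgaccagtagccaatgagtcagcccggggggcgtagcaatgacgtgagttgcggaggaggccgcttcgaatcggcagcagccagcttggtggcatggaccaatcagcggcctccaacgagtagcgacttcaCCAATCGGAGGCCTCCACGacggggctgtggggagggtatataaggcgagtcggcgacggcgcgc
Hsp90b1, chr10:86705445-86705694, strand -: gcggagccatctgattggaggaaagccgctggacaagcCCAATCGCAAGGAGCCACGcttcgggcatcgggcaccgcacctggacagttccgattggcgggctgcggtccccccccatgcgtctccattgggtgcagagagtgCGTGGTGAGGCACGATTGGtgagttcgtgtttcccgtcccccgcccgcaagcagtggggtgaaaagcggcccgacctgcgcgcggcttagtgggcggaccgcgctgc
Pdia6, chr12:17266339-17266588, strand +: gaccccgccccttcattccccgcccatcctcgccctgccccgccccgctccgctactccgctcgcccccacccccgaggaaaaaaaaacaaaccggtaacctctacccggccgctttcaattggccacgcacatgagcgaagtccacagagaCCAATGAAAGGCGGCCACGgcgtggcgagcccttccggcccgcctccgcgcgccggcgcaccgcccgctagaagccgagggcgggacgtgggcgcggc
Herpud1, chr8:94386179-94386428, strand +: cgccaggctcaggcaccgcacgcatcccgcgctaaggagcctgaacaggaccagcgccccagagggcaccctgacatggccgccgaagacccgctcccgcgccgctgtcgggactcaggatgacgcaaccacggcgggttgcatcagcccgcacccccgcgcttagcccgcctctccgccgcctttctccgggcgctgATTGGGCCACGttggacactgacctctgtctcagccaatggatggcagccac
Creld2, chr15:88819396-88819645, strand +: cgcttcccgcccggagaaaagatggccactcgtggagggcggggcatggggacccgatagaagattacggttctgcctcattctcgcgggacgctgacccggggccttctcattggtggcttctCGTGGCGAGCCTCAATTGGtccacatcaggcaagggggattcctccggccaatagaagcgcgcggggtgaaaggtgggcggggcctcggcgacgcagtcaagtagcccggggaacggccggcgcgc
Xbp1, chr11:5520391-5520640, strand +: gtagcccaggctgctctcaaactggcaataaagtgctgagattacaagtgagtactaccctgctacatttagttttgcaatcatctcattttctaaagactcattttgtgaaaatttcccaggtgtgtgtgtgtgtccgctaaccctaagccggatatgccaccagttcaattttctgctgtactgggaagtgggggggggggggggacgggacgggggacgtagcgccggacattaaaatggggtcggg
Hspe1, chr1:55087898-55088147, strand +: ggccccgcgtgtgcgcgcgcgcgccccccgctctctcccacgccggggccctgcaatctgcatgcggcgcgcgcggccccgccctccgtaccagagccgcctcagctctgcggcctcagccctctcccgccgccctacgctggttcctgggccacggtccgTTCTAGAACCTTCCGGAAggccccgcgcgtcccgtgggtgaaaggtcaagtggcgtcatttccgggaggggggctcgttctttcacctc
Stip1, chr19:7040027-7040276, strand -: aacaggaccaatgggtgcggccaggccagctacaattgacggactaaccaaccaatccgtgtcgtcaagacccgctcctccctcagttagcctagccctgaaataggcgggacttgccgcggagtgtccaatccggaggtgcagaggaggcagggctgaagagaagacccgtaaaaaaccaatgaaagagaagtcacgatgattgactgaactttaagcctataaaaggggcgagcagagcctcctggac

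In the model of the 5 constructs, which has no term for round, no chaperone gene of either arm was called against WT. With round added as a block, 11 members were called with the 2 fragments, beside 30.8% of all genes. D361E, 1-361 and 362-549 then called 0 members each, beside 1.64%, 1.36% and 1.3%. The values that follow are from the model without round unless rounds are named. The unfolded protein response arm lay at a median log2 difference of -0.14 in D361E, 0.01 in 1-361, -0.01 in 362-549 and 0.00 in 1-361+362-549, beside 0.03, 0.04, 0.06 and 0.05 over all genes tested. The heat shock arm lay at 0.02, -0.13, -0.11 and 0.25. The heat shock arm therefore exceeded the other by 0.24 in cells with the 2 fragments and by 0.16 with D361E, and the same difference was -0.14 with 1-361 and -0.10 with 362-549. Single arrays of 1 construct differed in this quantity by an SD of 0.447 and those of 1 round by an SD of 0.172, and the differences between constructs were not tested. Within rounds 1, 2 and 3 the difference from WT was -0.05, 0.10 and -0.03 with 1-361, 0.02, 0.21 and -0.11 with 362-549, and 0.20, 0.50 and 0.34 with the 2 fragments. With D361E it was -0.14, 0.20, 0.22 and 0.10 in the 4 rounds, so the 2 fragments alone kept 1 sign. On leaving out each array in turn, the difference ran from -0.08 to 0.29 for D361E, from -0.37 to 0.18 for 1-361 and from -0.28 to 0.24 for 362-549, and from 0.05 to 0.57 for 1-361+362-549. In D361E, 8 members were lower than WT within each of the 4 rounds (Hspa5, Hsp90b1, Dnajb9, Dnajc3, Xbp1, Manf, Hspa4l and Hsf1) and 0 were higher each time, beside 9.67% and 10.5% of all genes. Without any scaling between arrays the median of all genes moved by -0.42 to 0.19 in these contrasts, so the medians are read beside that of all genes.

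In limma's F-test over the 4 contrasts with WT, 0 of 33 members passed an adjusted p of 0.05, beside 8.81% of all genes, and 3 had an unadjusted p under 0.05 (Dnajb11, Creld2 and Stip1), beside 23.5%. Against WT, 0 members were called in D361E (0.487% of all genes), 1-361 (0.717%), 362-549 (0.697%) and 1-361+362-549 (5.12%). At an unadjusted p under 0.05 the counts were 0, 0, 1 and 3 members, beside 5.01%, 7.6%, 8.95% and 18.1% of all genes. Among the 6 contrasts without WT, 2 members were called, Creld2 and Stip1, both higher with the 2 fragments. These calls were made against D361E (9.72% of all genes called), 1-361 (10.9%) and 362-549 (14.4%), and the 3 contrasts among D361E and the single fragments called 0 members (0.993%, 1.32% and 0.625%). In this model without round, the share of members called was at or below that of all genes in every one of these contrasts. With round as a block the F-test called 11 members, beside 36.5% of all genes.

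Creld2, an endoplasmic reticulum protein secreted under ER stress, is read by a probe at 88656997 to 88657056 on chromosome 15 of mm9. In the order of the replicates, it stood at 4.04, 4.05 and 3.67 on the 3 arrays with the 2 fragments. Replicates 1, 2 and 3 lie in rounds 1, 2 and 3, except that those of 1-361 lie in rounds 2, 3 and 1. The WT arrays read 3.55, 3.47, 3.46 and 3.52, and the D361E arrays 3.04, 3.17, 3.17 and 3.55. The 1-361 arrays read 3.34, 3.57 and 3.15, and the 362-549 arrays 3.09, 3.40 and 3.54. All 3 arrays with the 2 fragments lay above every other array, and the lowest of them, 3.67, came from round 3. Creld2 was the 1 member whose arrays with the 2 fragments and with WT did not overlap, beside 16.6% of all genes. The mean was 3.92 ± 0.22 (SD, n = 3) with the 2 fragments, 3.50 ± 0.04 (n = 4) in WT and 3.23 ± 0.22 (n = 4) in D361E. Creld2 was higher with the 2 fragments by 0.69 ± 0.16 (SE) against D361E (limma adjusted p = 0.0114), by 0.57 ± 0.17 against 1-361 (0.0437) and by 0.58 ± 0.17 against 362-549 (0.0351). Against WT the difference was 0.42 ± 0.16 (adjusted p = 0.161).

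Within rounds 1, 2 and 3 Creld2 differed from D361E by 1.00, 0.88 and 0.50, from 1-361 by 0.90, 0.71 and 0.10, and from 362-549 by 0.95, 0.65 and 0.13. On the slides that held arrays of both groups it differed by 0.87, 0.50 and 0.63 from D361E and by 0.48 and 0.33 from 1-361, and no slide held 362-549 beside the 2 fragments. The call against D361E was lost without replicate 1 or 2 of the 2 fragments (adjusted p up to 0.0663) and stayed on leaving out any of the 15 other arrays. The call against 362-549 was lost without either of those arrays or without 362-549 replicate 1 or 2, with adjusted p up to 0.144. The call against 1-361 stayed only without replicate 3 of the 2 fragments, 362-549 replicate 1 or 3, D361E replicate 1 or 4, 1-361 replicate 2 or WT replicate 3, and was lost without any of the 10 others (adjusted p up to 0.180). With slide as a fixed block the call against D361E stayed (adjusted p = 0.0469) and the others did not, and with normexp background correction all 3 were lost (0.204 to 0.3001). All 3 were also lost with only the 2 groups compared, and those against 1-361 and 362-549 with no filter on dim probes. The call against 1-361 was also lost with quantile normalization and with slide as a random block. Creld2 carries an ER stress element in the sequence above, and also a kappaB match, GGGGGATTCC, at -93 to -84 from the start, which is not in capitals there. Neither match was tested.

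Stip1, the co-chaperone that links HSP70 to HSP90, is read by a probe at 7095433 to 7095492 on chromosome 19 of mm9. It read 3.71, 3.67 and 3.12 with the 2 fragments, 2.87, 2.90, 2.76 and 3.15 in WT, and 2.12, 2.57, 2.51 and 3.34 in D361E. It read 3.15, 2.65 and 2.54 in 1-361 and 2.26, 2.87 and 2.67 in 362-549. The arrays of rounds 1 and 2 with the 2 fragments lay above all others, while that of round 3 lay inside the range of WT, D361E and 1-361. Stip1 was higher with the 2 fragments by 0.86 ± 0.26 against D361E (limma adjusted p = 0.0469) and by 0.90 ± 0.28 against 362-549 (0.0415). The differences from 1-361, 0.72 ± 0.28 (0.101), and from WT, 0.58 ± 0.26 (0.249), were not called. Within rounds 1, 2 and 3 the difference from D361E was 1.59, 1.09 and 0.62, that from 362-549 was 1.45, 0.79 and 0.45, and on slides with both groups that from D361E was 1.201, 0.32 and 1.00. The call against D361E stayed only without replicate 3 of the 2 fragments, 362-549 replicate 1, D361E replicate 4 or 1-361 replicate 1, and was lost without any of the 13 others (adjusted p up to 0.177). The call against 362-549 stayed only without replicate 3 of the 2 fragments, 362-549 replicate 2, D361E replicate 1 or 4, 1-361 replicate 1 or 3, or WT replicate 3 or 4, and was lost without any of the 9 others (up to 0.155). Neither call stayed with slide as a fixed block (0.165 and 0.391) or with normexp background correction (0.245 and 0.125). Both were also lost with no filter on dim probes and with only the 2 groups compared, and that against D361E with slide as a random block.

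**Figure D1:**
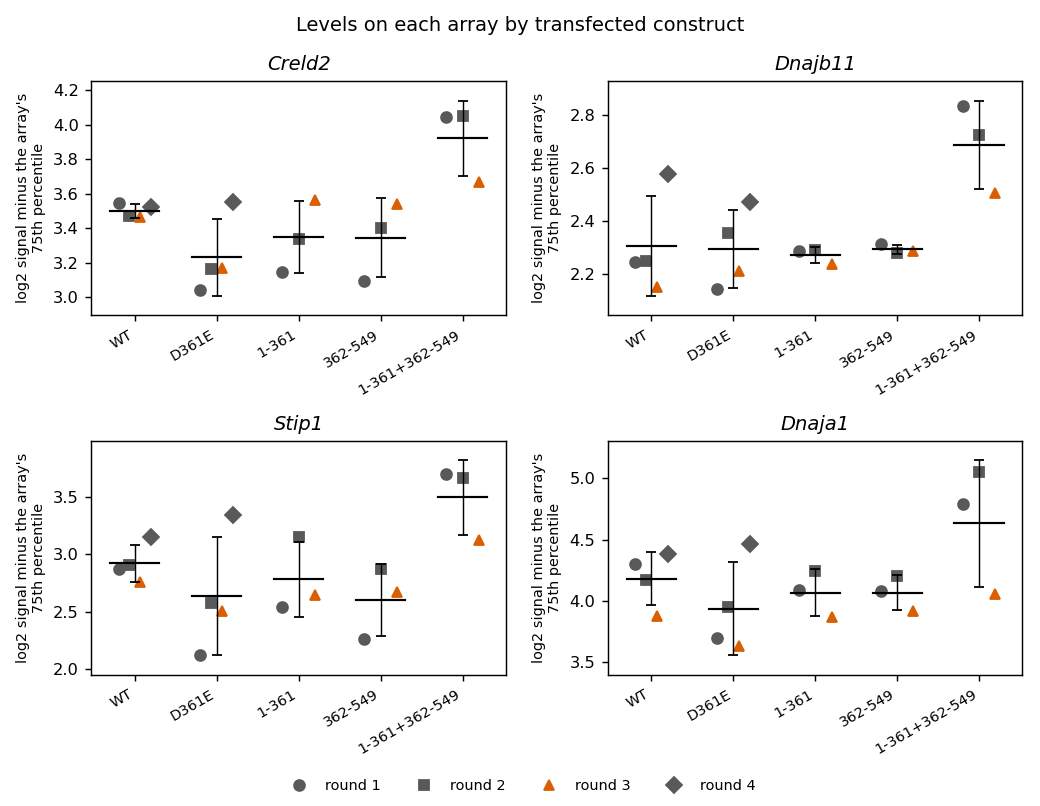
Log2 signal relative to the array's 75th percentile for Creld2, Dnajb11, Stip1 and Dnaja1 on each of the 17 arrays, by transfected construct. Symbols mark the round, with round 3 in orange, and the bars give the mean and SD of each construct. The 3 Creld2 values with the 2 fragments, 3.67 to 4.05, lie above all others, and round 3 gives the lowest of the 3 in all 4 genes.

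The other members with the smallest p in the F-test were not called. Dnajb11, a J-protein that partners the HSP70 of the endoplasmic reticulum, read 2.84, 2.72 and 2.51 with the 2 fragments and 2.25, 2.25, 2.15 and 2.58 in WT, against 2.15, 2.35, 2.21 and 2.47 in D361E, 2.29, 2.24 and 2.29 in 1-361 and 2.31, 2.28 and 2.29 in 362-549 (difference from WT 0.38 ± 0.13, limma adjusted p = 0.115). Its arrays with the 2 fragments did not overlap those of D361E, 1-361 or 362-549, beside 17.8%, 30.1% and 28.9% of all genes. Hspa5, the HSP70 of the endoplasmic reticulum known as BiP, read 5.79, 5.54 and 6.12 with the 2 fragments, 5.51, 5.21, 6.06 and 5.24 in WT, 5.07, 5.01, 5.44 and 5.15 in D361E, 5.06, 5.87 and 5.21 in 1-361 and 5.26, 5.07 and 6.40 in 362-549 (difference from WT 0.32 ± 0.30, adjusted p = 0.626). In each construct its highest array was that of round 3. Canx, a lectin chaperone, read 4.14, 4.08 and 4.24 with the 2 fragments, 4.03, 4.08, 4.54 and 4.06 in WT, 4.14, 3.98, 4.31 and 4.15 in D361E, 4.35, 4.56 and 4.15 in 1-361 and 4.30, 4.39 and 4.77 in 362-549, and differed from WT by 0.31 ± 0.16 in 362-549 (0.652).

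In the heat shock arm, Dnaja1, a cytosolic J-protein, read 4.79, 5.05 and 4.05 with the 2 fragments, 4.30, 4.17, 3.88 and 4.38 in WT, 3.69, 3.95, 3.63 and 4.47 in D361E, 4.24, 3.87 and 4.09 in 1-361 and 4.08, 4.20 and 3.91 in 362-549 (difference from WT 0.45 ± 0.24, limma adjusted p = 0.340). Its 2 highest arrays were those with the 2 fragments in rounds 1 and 2, and that of round 3 lay among the others. Dnajb1, the J-protein best known as an HSF1 target, read 4.23, 4.17 and 4.11 with the 2 fragments, 3.84, 3.85, 3.94 and 4.13 in WT, 3.55, 3.83, 3.86 and 4.24 in D361E, 3.83, 3.82 and 3.79 in 1-361 and 3.59, 3.94 and 3.94 in 362-549 (0.23 ± 0.15, 0.465). Hspa8, the constitutive cytosolic HSP70, read 6.08, 5.85 and 6.68 with the 2 fragments, 6.14, 6.00, 6.04 and 6.14 in WT, 6.59, 6.63, 6.17 and 6.09 in D361E, 6.43, 6.38 and 6.12 in 1-361 and 6.60, 6.67 and 6.60 in 362-549. Its arrays of 362-549 and WT did not overlap (0.54 ± 0.19, adjusted p = 0.372). The members without overlap between 362-549 and WT were 2, Hspa8 and Hsp90ab1, beside 9.78% of all genes.

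Markers of some other cell types moved with the 2 fragments. The summed level of the mast cell or basophil list (4 of 8 genes tested and all 4 called lower, 0 well above background on all arrays, Mcpt1 and Ms4a2 on none) ran from -4.64 to -3.64 with the 2 fragments and from 0.90 to 1.82 in WT. These 4 genes thus passed the filter through some groups and not all. That all 4 were lower with the 2 fragments is therefore not independent of the filter. That of the megakaryocyte list (6 of 7 tested, 3 called higher) ran from 7.004 to 7.58 against 5.56 to 5.91. That of the B cell and plasma cell list (2 of 9 tested) ran from 1.16 to 1.37 against 0.47 to 0.90. The sums of the T cell, macrophage, neutrophil and erythroid lists overlapped those of WT. The part of such markers in the differences of Creld2 and Stip1 was not tested, and fewer cells of a type and less RNA per cell cannot be told apart in these bulk samples.

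With the 2 fragments set against WT inside each round, 18 members kept 1 sign in rounds 1, 2 and 3, beside 54.9% of all genes. Of these, 10 members were higher each time, 3 of the unfolded protein response arm (Hspa5, Dnajb11 and Creld2) and 7 of the heat shock arm (Hspa4, Hsp90aa1, Dnaja1, Dnajb1, Hspd1, Stip1 and Ahsa1), beside 30.6% of all genes. Another 8 were lower each time, 6 and 2 by arm, beside 24.2%. Ahsa1, which stimulates the ATPase of HSP90, differed by 0.93, 1.32 and 0.12 in the 3 rounds, and Hspd1, the mitochondrial chaperonin HSP60, by 0.80, 1.09 and 0.17. Hsph1, an HSP110 that recharges HSP70, differed by 0.72 and 1.12 in rounds 1 and 2 and by -0.62 in round 3. Xbp1 differed by -0.46, -0.46 and -0.49, and Edem1, which passes misfolded glycoproteins to degradation, by -0.65, -1.11 and -0.48. The median of the heat shock arm was 0.37, 0.50 and 0.13 and that of the other arm 0.18, -0.00087 and -0.22. These are single arrays set against single arrays.

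**Figure D2:**
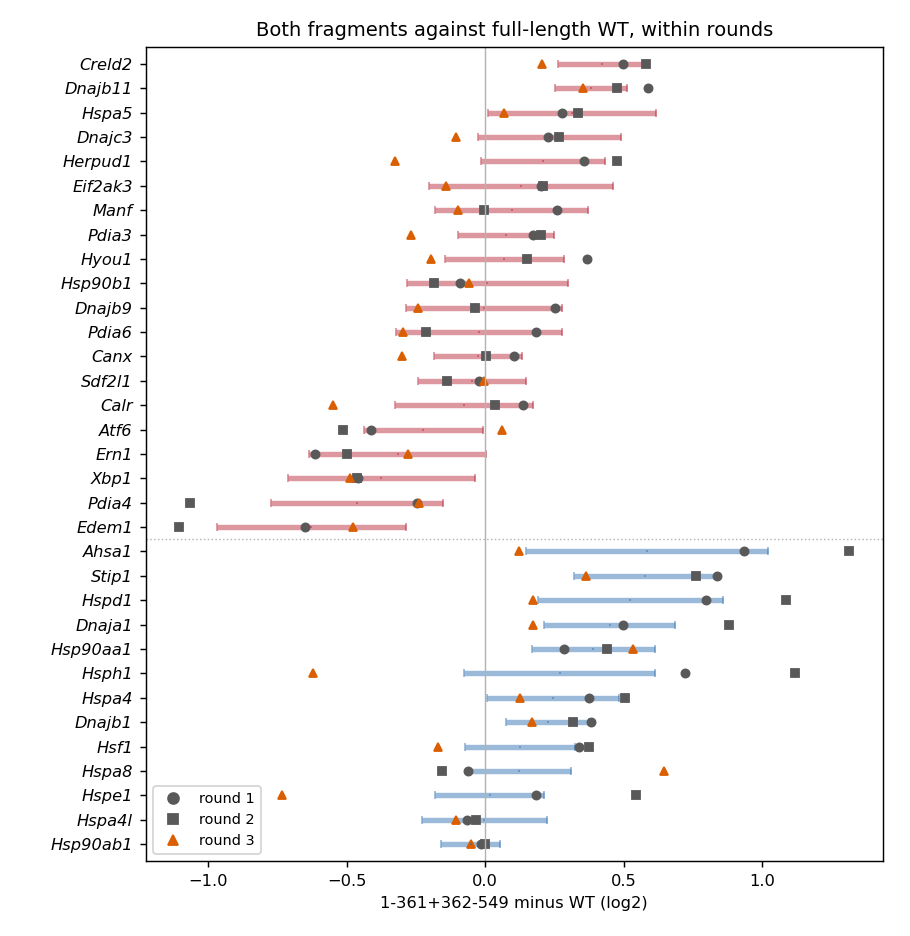
Log2 difference between the array with the 2 fragments and the WT array of the same round, for 33 members, by round symbol (round 3 in orange). The thick bars are the difference of the group means ± SE over all arrays, red for the unfolded protein response arm above the dotted line and blue for the heat shock arm below it. Creld2, Dnajb11, Stip1 and Ahsa1 lie above 0 in all 3 rounds, Xbp1 and Edem1 below 0 in all 3.

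With the 5 arrays of round 3 left out, a choice made after the data were seen, 12 arrays remained. The F-test then called 0 members (9.22% of all genes). The 2 fragments against WT called 2 members, both lower (6.72% of all genes). These were Xbp1 (-0.43 ± 0.11, limma adjusted p = 0.0447) and Edem1 (-0.81 ± 0.20, 0.0414), neither of which was called in the same model fitted to all 17 arrays. Against D361E 5 members were called (14.7% of all genes), with Hspa5, Creld2 and Dnaja1 higher and Pdia4 and Edem1 lower. Against 1-361 the count was 9 (19.4%) and against 362-549 it was 8 (18.2%), 6 and 5 of them higher, among them Ahsa1 by 1.08 ± 0.31 (0.0415) and 1.12 ± 0.31 (0.0382). Creld2 was called against D361E, 1-361 and 362-549 (adjusted p = 0.0158, 0.0214 and 0.0206), and Stip1 against none of them (0.0698, 0.113 and 0.0609). The 6 other contrasts called 0 members.

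More members were called between rounds, in a model that also holds construct, than between constructs in the model without round. These counts come from unlike models. With round as a block, the 2 fragments called 11, 14, 13 and 13 members against WT, D361E, 1-361 and 362-549. The shares of all genes were then 30.8%, 39.9%, 37.1% and 39.8%. Against round 1, 13 members were higher in round 3 in all 5 constructs, 12 of them of the unfolded protein response arm (21.4% of all genes), and 8 were lower in all 5, 7 of them of the heat shock arm (17.5%). In a model with construct and round, limma called 24 of 33 members between the rounds, 14 and 10 by arm, beside 50.2% of all genes. Round 3 against round 1 called 22 members, beside 38.6% of all genes. Of the unfolded protein response arm 14 were higher and 0 lower, and of the heat shock arm 1 was higher and 7 lower, while 20.5% of all genes were higher and 18.2% lower. Round 3 against round 2, which uses the same 5 arrays of round 3, called 22 (34.9% of all genes), 15 higher and 0 lower in the first arm and 1 higher and 6 lower in the other, beside 17.2% higher and 17.7% lower. Round 2 against round 1 called 0 members, beside 0.0263% of all genes. The median difference from round 1 was 0.46 in the unfolded protein response arm, -0.32 in the heat shock arm and 0.05 over all genes, and from round 2 it was 0.48, -0.44 and 0.06. The comparison of rounds was chosen after the data were seen.

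On single arrays, the heat shock arm minus the unfolded protein response arm (medians of deviations from each gene's mean) was -0.70 in WT, -0.43 in D361E, -0.67 in 1-361, -0.74 in 362-549 and -0.36 in 1-361+362-549 in round 3. In rounds 1 and 2 it ran from 0.01 to 0.52, and in round 4 it was 0.33 and 0.42. All 5 arrays of round 3 thus lay below all 12 others. The highest values of rounds 1 and 2, 0.48 and 0.52, were those of the 2 fragments.

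**Figure D3:**
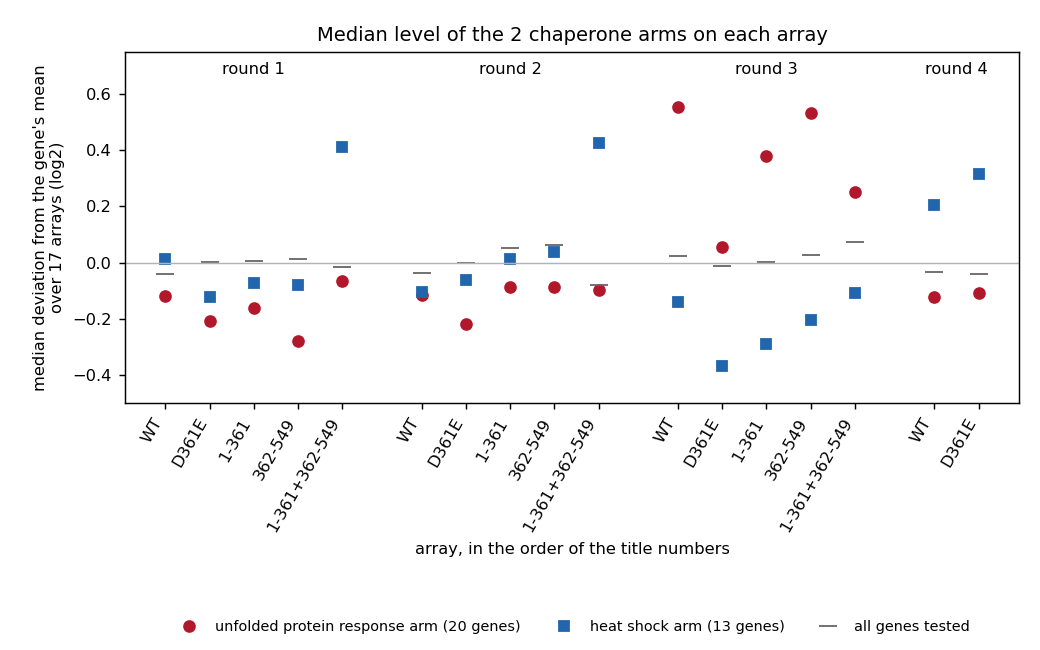
Median over the members of each arm of the deviation from the gene's mean over 17 arrays (log2), for each array in the order of the title numbers. Red circles are the 20 genes of the unfolded protein response arm, blue squares the 13 tested genes of the heat shock arm, grey dashes all genes tested. The red circle lies above the blue square on all 5 arrays of round 3 and below it on the 12 others.

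Among the sensors and the factor of the unfolded protein response, Xbp1 and Eif2ak3 were higher in round 3 in every construct. Xbp1 read 6.05, 5.64, 5.97, 6.47 and 5.56 on the round 3 arrays of WT, D361E, 1-361, 362-549 and 1-361+362-549, and 4.72 to 5.36 (median 5.10) on the 12 others. Eif2ak3 read -0.07, -0.35, -0.19, -0.09 and -0.21 there, against -1.31 to -0.73 (median -0.98). For both genes the round 3 arrays did not overlap the others. Xbp1 was higher by 0.87 ± 0.09 against round 1 (limma adjusted p = 3.94e-05) and 0.84 ± 0.09 against round 2 (6.77e-05), and Eif2ak3 by 0.87 ± 0.10 (8.28e-05) and 0.81 ± 0.10 (0.000162). The third sensor Atf6 was called against round 1 (0.38 ± 0.12, 0.0216) and not against round 2 (0.02 ± 0.12, 0.903). Ern1 was called against neither (-0.40 ± 0.16, 0.0690, and 0.23 ± 0.16, 0.292).

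Hspa5 read 6.06, 5.44, 5.87, 6.40 and 6.12 in round 3 and 5.01 to 5.79 (median 5.21) elsewhere, with the D361E array inside the range of the others. It was higher by 0.61 ± 0.12 against round 1 (adjusted p = 0.00252) and by 0.80 ± 0.12 against round 2 (0.000596). Hsp90b1, the HSP90 of the endoplasmic reticulum, was higher by 0.66 ± 0.09 (0.000267) and 0.70 ± 0.09 (0.000235). Among the J-proteins and their partners, Dnajb9 was higher by 0.76 ± 0.12 and 0.50 ± 0.12 and Sdf2l1 by 0.44 ± 0.10 and 0.38 ± 0.10, all called. Dnajc3, an inhibitor of eIF2 kinases, was called against round 2 alone (0.47 ± 0.16, adjusted p = 0.0393).

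The disulfide isomerase Pdia6 read 6.46, 5.99, 6.38, 6.42 and 6.17 in round 3 and 5.29 to 5.80 (median 5.58) elsewhere, with no overlap. It was higher by 0.78 ± 0.10 against round 1 and 0.68 ± 0.10 against round 2 (limma adjusted p = 0.000213 and 0.000620), and Pdia4 by 0.58 ± 0.18 and 0.68 ± 0.18 (0.0225 and 0.0125). Pdia3, which folds glycoproteins, was called against round 2 (0.33 ± 0.12, 0.0452) and not against round 1 (0.189). The lectin chaperones Calr and Canx were higher by 0.48 ± 0.14 and 0.33 ± 0.08 against round 1. Manf, a secreted factor of ER stress, was higher by 0.72 ± 0.12 against round 1 and 0.53 ± 0.12 against round 2. In degradation, Edem1 read 1.31, 1.02, 1.13, 1.15 and 0.83 in round 3 and -0.40 to 0.70 (median 0.35) elsewhere, again with no overlap (0.85 ± 0.12 and 0.70 ± 0.12, adjusted p = 0.000360 and 0.00141). Herpud1, another factor of that route, was higher by 0.43 ± 0.14 (0.0305) and 0.40 ± 0.14 (0.0465).

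Besides Ern1, 3 members of this arm were called in neither comparison. Creld2 differed by 0.11 ± 0.12 (adjusted p = 0.518) and -0.0038 ± 0.12 (0.983). Dnajb11 differed by -0.09 ± 0.07 (0.378) and -0.10 ± 0.07 (0.296), and Hyou1, an HSP110 of the endoplasmic reticulum, by -0.34 ± 0.14 (0.0753) and -0.17 ± 0.14 (0.365). Of the 9 members with an ER stress element or its variant in the promoter window, 6 were called against round 1, and of the 8 with a window and no match 6 were called.

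In the heat shock arm, the HSP90 co-chaperone Ahsa1 had the largest difference of its arm in round 3. It read 3.29, 3.59, 3.39, 3.07 and 3.41 there and 3.86 to 5.21 (median 4.11) on the 12 others, with no overlap. The difference was -0.84 ± 0.17 against round 1 (limma adjusted p = 0.00254) and -0.94 ± 0.17 against round 2 (0.00147), and it was largest with the 2 fragments, -1.64 and -1.80. Hsp90aa1, the inducible cytosolic HSP90, was lower, at -0.50 ± 0.10 (0.00190) and -0.45 ± 0.10 (0.00429), whereas its constitutive relative Hsp90ab1 differed by 0.03 ± 0.07 (0.796) and -0.01 ± 0.07 (0.900). Stip1 was called in neither (0.04 ± 0.15 and -0.29 ± 0.15).

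Among the HSP110 genes, whose products exchange the nucleotide of HSP70, the 3 members did not all go one way. Hspa4 read 4.05, 3.93, 3.89, 4.24 and 4.18 in round 3 and 4.33 to 4.85 (median 4.55) elsewhere, lower, at -0.54 ± 0.07 and -0.47 ± 0.07 (adjusted p = 0.000188 and 0.000562). Hsph1 was lower against round 1 (-0.67 ± 0.19, 0.0165) and not called against round 2 (-0.51 ± 0.19, 0.0567). Hspa4l read 1.21, 1.01, 0.89, 1.10 and 1.10 in round 3 and 0.32 to 0.69 (median 0.54) elsewhere, higher by 0.61 ± 0.06 (3.37e-05) and 0.47 ± 0.06 (0.000210). It was the 1 member of its arm called higher. The groups of arrays did not overlap for Hspa4 and Hspa4l, in opposite directions.

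Hsf1, the factor of the heat shock response, read 0.80, 0.62, 0.62, 0.64 and 0.63 in round 3 and 0.82 to 1.37 (median 0.98) elsewhere, with no overlap (-0.33 ± 0.09 and -0.44 ± 0.09, adjusted p = 0.0160 and 0.00387). Hspd1 was lower, at -0.48 ± 0.14 (0.0157) and -0.64 ± 0.14 (0.00408), while Hspe1, its cofactor, which shares promoter bases with it as shown above, differed by -0.01 ± 0.17 (0.977) and -0.04 ± 0.17 (0.876). Dnaja1 was lower, at -0.32 ± 0.12 (0.0494) and -0.45 ± 0.12 (0.0119). Dnajb1 (0.13 ± 0.08, 0.241) and Hspa8 (0.07 ± 0.16, 0.783) were not called against round 1, nor against round 2. Over both arms, 9 members had round 3 arrays that overlapped none of the 12 others, 6 higher (4.83% of all genes) and 3 lower (5.72%).

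**Figure D4:**
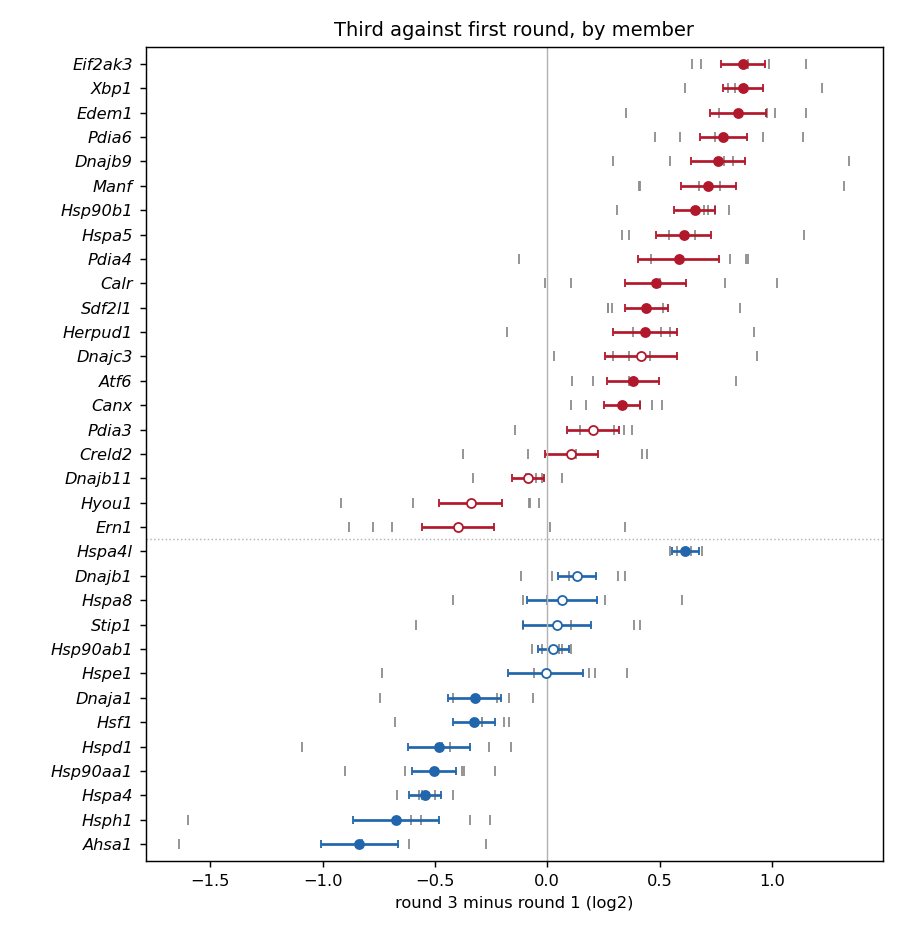
Log2 difference of round 3 from round 1 for 33 members, with the SE from the model of construct and round, red for the unfolded protein response arm and blue for the heat shock arm. Filled circles have an adjusted p under 0.05, open ones do not, and grey ticks are the differences within each of the 5 constructs. The members of the first arm reach 0.87 (Xbp1 and Eif2ak3) and those of the heat shock arm -0.84 (Ahsa1).

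These calls varied with the processing in number, and none of them changed sign. Under quantile normalization, no scaling and normexp background correction, the calls of round 3 against round 1 were counted again. Of the unfolded protein response arm 14, 9 and 11 members were higher, and 1, Ern1, was lower under quantile normalization. Of the heat shock arm 7, 4 and 1 were lower and 1 was higher each time, so under normexp its calls were 1 each way. The median of the heat shock arm was -0.34, -0.38 and -0.23. Shares of all genes called under these 3 settings are not given. Of the 22 called, 10 were called under all 24 alternatives, 8 of the unfolded protein response arm (Hspa5, Hsp90b1, Dnajb9, Xbp1, Eif2ak3, Pdia6, Manf and Edem1), with Hspa4l and Ahsa1. On leaving out each array in turn 17 stayed called, and Atf6, Herpud1, Pdia4, Calr and Dnaja1 did not each time. Among markers of other cell types, Igj, Sdc1 and Tnfrsf17, which mark plasma cells, were well above background on 0 of 17 arrays. Macrophage markers (3 of 7 on the array tested) summed to 1.35 to 2.37 in round 3 and 0.79 to 2.26 in round 1, with Emr1 and Cd68 called higher. Erythroid markers (4 of 8 tested, Ahsp and Alas2 well above background on no array) summed to 4.33 to 6.40 in round 3 and 3.37 to 5.43 in round 1, with Hba-a1 called higher. The part of these markers in the result was not tested.

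**Figure D5:**
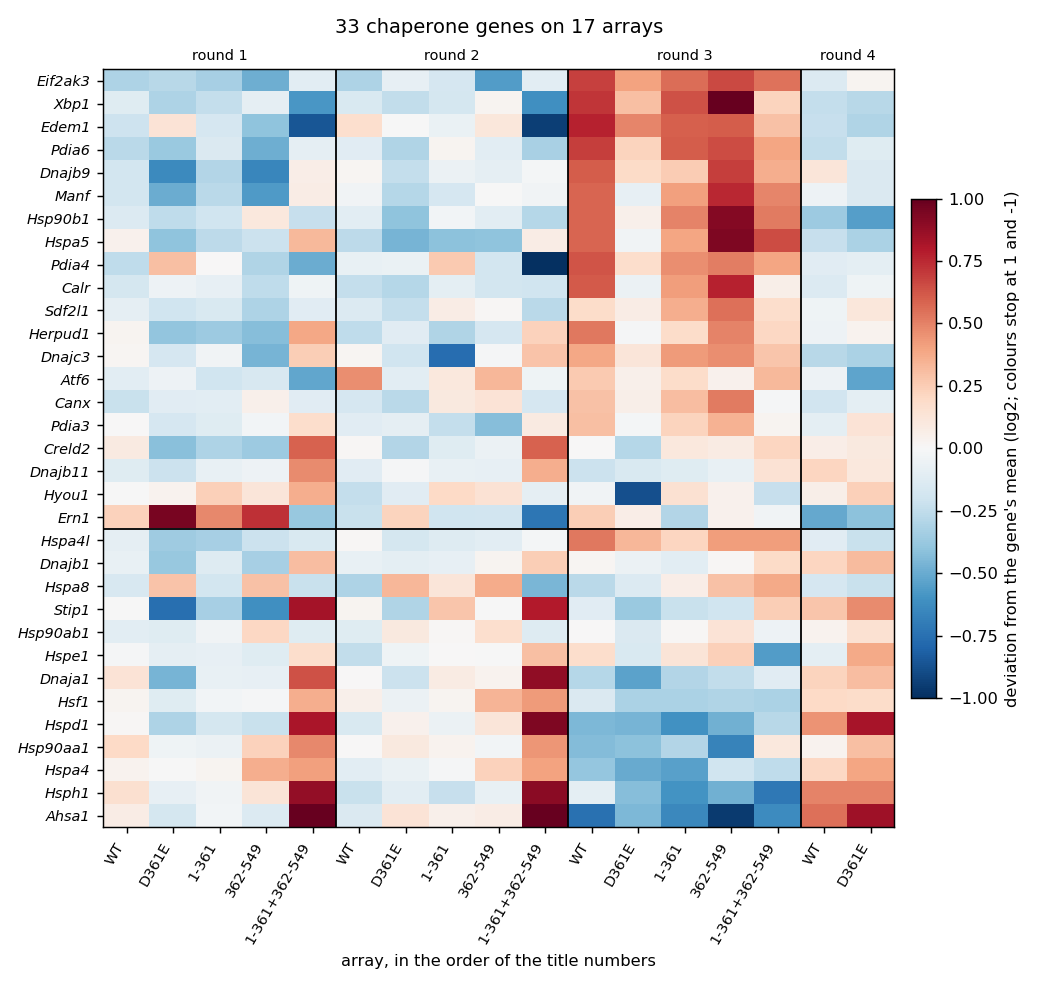
Deviation of each of 33 members from its own mean over 17 arrays (log2, colours stop at 1 and -1), with the unfolded protein response arm above the horizontal line and arrays in the order of the title numbers, split by round. Most rows of the upper arm are red in round 3 and most of the lower arm blue, and the 2 fragments are red for Ahsa1, Hsph1 and Hspd1 in rounds 1 and 2.

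Other genes of the same pathways were taken from lists of known members. Of 34 other ER folding and translocation genes tested, 13 were higher and 3 lower in round 3 against round 1, where 20.5% of all genes were higher and 18.2% lower. Ero1l, an oxidase that recharges the disulfide isomerases, was higher by 2.66 ± 0.32 (limma adjusted p = 0.000110), Ero1lb, its relative, by 1.17 ± 0.10, and P4hb, the founding disulfide isomerase, by 0.71 ± 0.14, while Sec61a1, the channel of protein entry, was lower, at -0.27 ± 0.06. Of 16 other ER-associated degradation genes, 4 were higher (Sel1l by 0.65 ± 0.10) and 3 lower (Vcp, the extracting ATPase, by -0.46 ± 0.08). Of 9 outputs of the PERK branch, 2 were higher and 0 lower, Ddit3, which codes for CHOP, by 1.54 ± 0.35 (0.00488) and Trib3, its target, by 0.96 ± 0.20 (0.00319). Of 12 other HSP90 co-chaperones, 0 were higher and 6 lower, among them Ppid by -0.85 ± 0.14 and Unc45a by -0.75 ± 0.08, with a list median of -0.33 beside 0.05 over all genes. Of 17 other genes of the cytosolic HSP70 system 3 were higher and 6 lower, of 13 chaperonin TRiC and prefoldin genes 2 and 2, of 10 other mitochondrial chaperones and proteases 2 and 1, of 5 other small heat shock proteins and heat shock factors 1 and 1, and of 5 membrane-tethered factors and their proteases 0 and 0.

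Against WT, calls in these lists are read beside the share of all genes called, 5.12% with the 2 fragments, 0.717% with 1-361, 0.487% with D361E and 0.697% with 362-549. With the 2 fragments Nupr1 and Atf5, outputs of the PERK branch, were lower, at -2.59 ± 0.28 (limma adjusted p = 3.15e-05) and -1.45 ± 0.17 (7.48e-05), and with 1-361 by -2.53 ± 0.28 (0.000138) and -0.94 ± 0.17 (0.0146), 2 of the 9 genes of that list in each. Ufd1l, a partner of Vcp, was higher with the 2 fragments by 0.62 ± 0.17 (0.0419), 1 of 16, and Dnajb5, a cytosolic J-protein, lower, at -1.01 ± 0.27 (0.0465), 1 of 17. D361E and 362-549 called 0 genes of the 9 pathway lists. Without round 3, Nupr1 and Atf5 were called lower with the 2 fragments (-2.53 ± 0.34, adjusted p = 0.00215, and -1.17 ± 0.12, 0.000455) and with 1-361 (-2.24 ± 0.34, 0.0195, and -0.83 ± 0.12, 0.0158), and Atf5 also with 362-549 (-0.69 ± 0.12, 0.0449). Dnajb5 was lower with the 2 fragments, at -1.47 ± 0.12 (9.25e-05), and the call of Ufd1l was lost (0.70 ± 0.18, 0.0521). Edem3 (higher), Hspa2 and Unc45a (both lower) were then also called with the 2 fragments. The median of the HSP90 co-chaperone list was 0.21 with the 2 fragments and 0.04, -0.04 and -0.05 with D361E, 1-361 and 362-549, beside 0.05, 0.03, 0.04 and 0.06 over all genes. Without round 3 it was 0.38 with the 2 fragments, beside 0.01 over all genes.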

How the data were processed

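Intensities were deposited by the authors as one Agilent Feature Extraction (10.7.3.1) file per array, per the file headers, with signal already background-subtracted within the array and not scaled between arrays. From these, log2 of the processed signal minus the array's 75th percentile was computed, control and outlier spots were left out, probes had to be well above background on all arrays of 1 group or more, and the brightest kept probe stood for a gene (15202 genes). limma (3.58.1, R 4.3.3) fitted 1 model of 5 groups with 10 contrasts and an F-test over the 4 contrasts with WT. Calls are at a Benjamini-Hochberg adjusted p under 0.05 over all genes. Rounds were fitted in a second model with construct and round. The scripts were tested on simulated data.

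The members and lists were chosen with earlier results of these data known. Values on every array are given for members called in any contrast and, per arm, the 4 with the smallest F-test p. From each pathway list, up to 3 genes called against WT are named, and members and list genes named for the rounds were chosen after their values were seen. As alternatives, scaling was done by quantiles or left out, the background was corrected by normexp, and 2 other probe filters, the mean of probes, slide or round as a block, only the 2 groups compared, and the omission of each array were tried. The number of arrays limits the precision. Promoter windows came from RefSeq (GRCm38.p6), and probe positions, in mm9, from the array files.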

Additional observations from a re-analysis of the deposited data

Results flagged for a closer look

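Among 22 sets of 4 arrays examined for named members and arm medians, 2 held an array far from the other 3, and chance gives such a result in about 1 of 20 sets. The WT replicate 3 array read 4.54 for Canx, where the nearest of the other WT arrays read 4.08. The median deviation of the unfolded protein response arm was 0.56 on the same array, where the nearest other WT array was at -0.11. WT replicate 3 is the WT array of round 3.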

How the results depend on the processing

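Of the counts of called members, 230 stayed within 1.5 times their main value and 31 did not, and 0 of the single-member results changed sign under any alternative run (1018 kept their side of the threshold and 173 lost the call). The F-test count of 0 became 1 without scaling and ran from 0 to 2 on leaving out each array. The count against WT with the 2 fragments, 0, became 2 without the third round and ran from 0 to 1 on leaving out each array. The count of 2 over the contrasts without WT became 13 without scaling, 0 with normexp, 1 with no filter, 1 with slide as a fixed block, 0 with only the 2 groups compared, and ran from 0 to 10 on leaving out each array. Without scaling the median of all genes moved by 0.40, 0.42 and 0.60 with the 2 fragments against D361E, 1-361 and 362-549. No share of all genes called stands beside the 13, so it is not read as a result about the members. The 24 members called between rounds became 12 with normexp. The 22 called in round 3 against round 1 became 14 without scaling, 13 with normexp and 14 with no filter, and the 22 against round 2 became 13 without scaling and 13 with normexp. The count of 0 in round 2 against round 1 became 1 with slide as a fixed block and ran from 0 to 1 on leaving out each array. The cause of these moves was not tested.

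With round as a replicate block, the counts became 11 in the F-test, 11 against WT with the 2 fragments (30.8% of all genes called) and 19 over the contrasts without WT. The 11 against WT were Xbp1 and Edem1, lower, and Dnajb11, Creld2, Hspa4, Hsp90aa1, Dnaja1, Dnajb1, Hspd1, Stip1 and Ahsa1, higher. The labels do not say what the numbers stand for, so they were not taken as a pairing in the main model. That model therefore leaves differences between rounds in the spread between arrays. In deviations from the construct means, same-round arrays of different constructs correlated from -0.18 to 0.73 (median 0.38), with 24 of 31 pairs over 0.1. The median for arrays of other rounds was -0.14, and 13 of 17 arrays were closest to an array of their own round.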

Other observations

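Other probes of a member did not always follow the brightest one. For Ern1, whose brightest probe differed by -0.40 between rounds 3 and 1, a dimmer probe well above background on 15 of 17 arrays differed by 1.26. The second Dnajb9 probe differed by 0.03 against round 1 and by 0.78 against round 2. For Hspa8, whose brightest probe differed by 0.07 between rounds 3 and 1, 2 dimmer probes well above background on all 17 arrays differed by 0.57 and 0.09. The dimmer probes of Hspa4 went the same way as the brightest, at -1.16 and -1.30, as did that of Hsph1 at -0.90 and those of Pdia6 at 0.68 and 1.40. The dimmer Dnaja1 probe differed by -0.04 between the 2 fragments and WT, where the brightest differed by 0.45. The dimmer Dnajb11 probe, well above background on only 3 of 17 arrays, differed by -1.96 there, where the brightest differed by 0.38.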
